A study of Mus musculus with 6 samples.

Results

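The kappa light chain libraries of an iB-μMT mouse and a C57BL/6 (B6) mouse had 894 clonotypes in common. A clonotype was counted as found in both mice when the same CDR3 nucleotide sequence was listed with the same best V gene and the same best J gene in both libraries. The 894 made up 49.2% of 1818 kappa clonotypes in the iB-μMT mouse, 52.7% of 1696 in the B6 mouse and 34.1% of the 2620 different kappa clonotypes listed in either. They carried 91.7% of 562884 kappa reads in the iB-μMT library and 93.5% of 534314 in the B6 library. Over all 6 libraries of the series, which also cover the heavy and lambda chains, 18182 clonotypes were listed.

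The iB-μMT mouse was a sublethally irradiated μMT mouse, a strain in which a disrupted Ighm gene stops B cells from maturing. It received induced hematopoietic progenitor cells (iHPCs) derived from C57BL/6 embryonic stem cells that carry doxycycline-inducible Runx1, Hoxa9 and Lhx2 (iR9X2-ESCs), drank doxycycline water, and was sampled at week 4. Recipients were 8 to 10 weeks old at transplantation; the control was an untransplanted B6 mouse whose age is not given in the sources used here. From the spleen of each mouse 100000 naïve follicular (FO) B cells were sorted, and antibody transcripts were amplified from total RNA by 5′ RACE. There was 1 mouse and 1 library per group and chain, so differences between mice could not be checked by replicates, and intervals below are 95% Wilson intervals that cover counting error over clonotypes. Reads of a clonotype combine the number of its cells, the RNA in each cell and amplification, and these cannot be told apart. The tables list receptor sequences and no other transcripts, so the sorted cell type could not be checked against its markers.

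A mouse kappa light chain is made by joining 1 of many Igkv segments to an Igkj segment on chromosome 6, and the join encodes the end of CDR3, the most variable loop of the chain. There is no D segment. Enzymes may remove bases from either end before joining, short palindromic bases may be left by the opening of the DNA hairpin, and terminal transferase, which adds untemplated bases, works much less on light than on heavy chain joins. The same light chain CDR3 can therefore arise independently in different cells and animals.

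The 5 members with the largest read share, averaged over both kappa libraries, are shown as the largest by that measure. Each sequence is the CDR3 from its cysteine codon to its phenylalanine codon, 5′ to 3′, as deposited. Capitals mark the bases at the join, either aligned to both the V and the J segment or inserted between them. A sequence with no capitals is one in which the aligned V and J ends met.
IGKV6-15 with IGKJ5: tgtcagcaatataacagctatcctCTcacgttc
IGKV10-96 with IGKJ1: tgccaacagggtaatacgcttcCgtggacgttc
IGKV6-15 with IGKJ2: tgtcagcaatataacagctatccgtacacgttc
IGKV6-23 with IGKJ5: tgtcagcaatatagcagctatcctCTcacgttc
IGKV17-121 with IGKJ5: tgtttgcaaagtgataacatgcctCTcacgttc

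These 5 CDR3s were all 33 bases (11 amino acids) long and none had an inserted base. The IGKV6-15 clonotype with IGKJ5 had 11430 reads in the iB-μMT and 13285 in the B6 mouse, 2.03% and 2.49% of all kappa reads. The IGKV10-96 clonotype had 10137 and 11769 reads. The IGKV6-15 clonotype with IGKJ2 had 7302 reads in the iB-μMT and 12910 in the B6 mouse. All 5 had a higher read share in the B6 mouse, by 1.22-fold to 1.88-fold. Members as a set did not share this direction. Their median log2 ratio of read shares, iB-μMT over B6, was 0.08, with quartiles of -0.56 and 0.76. In those of the 5 clonotypes with IGKJ5, the V segment was untrimmed and 1 base was trimmed from J. The same 2 bases could be aligned to either end. IGKV6-15 lies at chr6:70406469-70406992, IGKV10-96 at chr6:68631965-68632430, IGKV6-23 at chr6:70260409-70260933 and IGKV17-121 at chr6:68036818-68037318 in the RefSeq annotation of GRCm38.p6, and IGKJ5 at chr6:70723886-70723923.

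Whether a clonotype was found in both mice followed its read count. Of the clonotypes with 1 read, 1.85% in the iB-μMT mouse (2 of 108), and 1.71% in the B6 mouse (2 of 117) were found in both. At 31 to 100 reads the shares were 47.0% (42.5 to 51.5) and 58.8% (54.0 to 63.5). At over 300 and up to 1000 reads they were 92.3% and 92.1%, and over 1000 reads they were 95.9% (142 of 148) and 96.4% (132 of 137). Every clonotype with over 1000 reads had its CDR3 sequence in the other library, also where the V or J gene named there was another. The median member had 138 reads in the iB-μMT mouse (quartiles 42.2 and 540.8), and 117.5 in the B6 mouse (quartiles 37 and 453.8). Clonotypes listed in one library had a median of 21 reads in the iB-μMT and 17 in the B6 mouse, so the medians of members were 6.57 and 6.91 times as high. Since a clonotype had to be seen in both libraries to be a member, its read count bears on its membership, and these values describe the rule and test nothing. No other measured value was used, and members were chosen by presence in both tables alone.

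**Figure D1:**
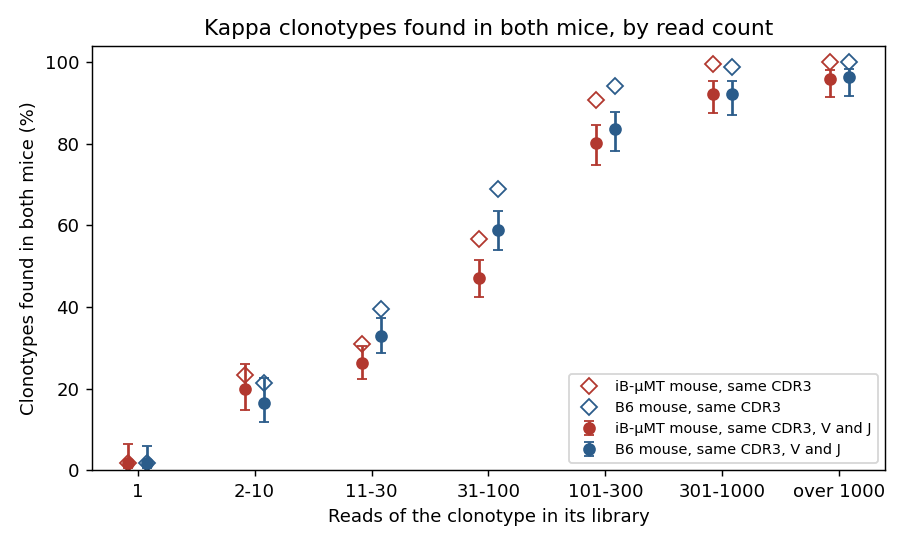
The x axis groups kappa clonotypes by their reads in their own library and the y axis gives the percent found in both mice. Filled circles with 95% Wilson intervals count the same CDR3, V and J, and open diamonds (no interval drawn) count the same CDR3 with any V or J. The filled circles run from under 2% at 1 read to over 95% above 1000 reads in both mice.

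At the edge of the rule, 3 members had a single read in the library where they were lower, and 12 had 3 reads or fewer there. The 3 are shown because they entered by the smallest possible count.
IGKV14-126 with IGKJ4: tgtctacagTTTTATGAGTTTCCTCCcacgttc
IGKV4-91 with IGKJ1: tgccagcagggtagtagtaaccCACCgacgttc
IGKV5-43 with IGKJ4: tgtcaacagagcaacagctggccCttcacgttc
The IGKV14-126 member had 1 read in the iB-μMT and 5 in the B6 mouse, the IGKV4-91 member 2 and 1, and the IGKV5-43 member 1 and 1. Among members with 3 reads or fewer in one library, the highest count in the other was 20, and no member paired 3 reads or fewer with over 100. This differed from the heavy chain libraries, where 34 clonotypes were found in both mice and 20 of them paired 3 reads or fewer with over 100, up to 607 reads against 1. The transfer of reads between libraries was not tested. In the lambda libraries, 28 clonotypes were found in both mice and none had such a pair.

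Just outside the rule, 121 CDR3 sequences were in both libraries but listed under another V gene, another J gene or both. With these, 1015 CDR3 sequences were in both, or 55.8% of iB-μMT and 59.8% of B6 kappa clonotypes. The V gene differed in 61 and the J gene in 67, with both differing in 7. In 52 of the 61 the V genes belonged to the same family, most often IGKV4-59 and IGKV4-68 (9 CDR3s), and in 8 they were IGKV6-25 and IGKV8-24. The J genes were most often IGKJ2 and IGKJ5 (28) or IGKJ4 and IGKJ5 (24). The largest clonotypes listed in one mouse were of this kind, and 3 of their CDR3s are shown because the rule counts them as not in common.
IGKV4-59 with IGKJ2 in the iB-μMT mouse, IGKV4-68 with IGKJ2 in the B6 mouse: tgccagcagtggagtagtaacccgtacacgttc
IGKV4-68 with IGKJ5 in the iB-μMT mouse, IGKV4-59 with IGKJ5 in the B6 mouse: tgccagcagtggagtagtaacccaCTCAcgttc
IGKV4-57 with IGKJ4 in the iB-μMT mouse, IGKV4-57 with IGKJ5 in the B6 mouse: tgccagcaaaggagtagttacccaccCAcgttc
They had 2898 and 1707 reads, 2647 and 2239 reads, and 1416 and 1279 reads in the iB-μMT and the B6 mouse. The tables give each CDR3 sequence a single V and J gene, so a CDR3 that related segments can encode was listed once in each library. Whether both chains were present in a mouse cannot be read from them.

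The CDR3s listed in one library alone, under any V or J gene, had fewer reads. There were 803 of them in the iB-μMT and 681 in the B6 mouse, and they carried 3.86% and 2.93% of the kappa reads. Those with the most reads are shown to set against the members.
IGKV6-17 with IGKJ2, iB-μMT mouse: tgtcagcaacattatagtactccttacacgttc
IGKV6-23 with IGKJ2, iB-μMT mouse: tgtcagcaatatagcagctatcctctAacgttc
IGKV3-2 with IGKJ2, iB-μMT mouse: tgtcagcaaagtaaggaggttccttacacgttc
IGKV6-15 with IGKJ2, B6 mouse: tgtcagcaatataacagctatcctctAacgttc
IGKV10-96 with IGKJ2, B6 mouse: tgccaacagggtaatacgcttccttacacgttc
IGKV19-93 with IGKJ1, B6 mouse: tgtctacagtatgataatctttggacgttc
The first 3 had 309, 272 and 209 reads in the iB-μMT mouse, and the last 3 had 481, 387 and 299 in the B6 mouse. A count of 0 was read as up to 3 reads, or 0.000561% of the kappa reads in the B6 library and 0.000533% in the iB-μMT library. Reads are not independent molecules, so a clonotype of few cells may be missed and this floor is not a strict limit. Against that floor the IGKV6-15 clonotype was 168.9-fold higher in the B6 mouse and the IGKV6-17 clonotype 97.8-fold higher in the iB-μMT mouse. Each of the 6 differed by 1 base from a larger clonotype of the same V gene in the library that lacked it, with 1456 to 11430 reads. For the IGKV6-15 clonotype that neighbour was the largest member, shown above.

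Read counts of the members tracked each other between the mice. The log2 ratio of read shares, iB-μMT over B6, had a median of 0.08 and an SD of 1.18 over the 894 members, with quartiles of -0.56 and 0.76. On the log2 scale the read counts had a Pearson r of 0.885 and a Spearman rho of 0.871 over 894 clonotypes. All of these points come from the same pair of libraries, so the coefficients describe these libraries and have no p. Of the members, 601 (67.2%) lay within 2-fold. The spread narrowed with depth, with an SD of 1.43 in the 405 members with a mean of up to 100 reads, 1.02 in the 351 with over 100 to 1000, and 0.55 in the 138 above that. Of the 429 members with at least 100 reads in each library, 87.2% lay within 2-fold. This minimum leaves out members that were low in one library, so the higher share follows in part from it. Membership likewise leaves out clonotypes unlisted in one library, so these values do not cover them.

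**Figure D2:**
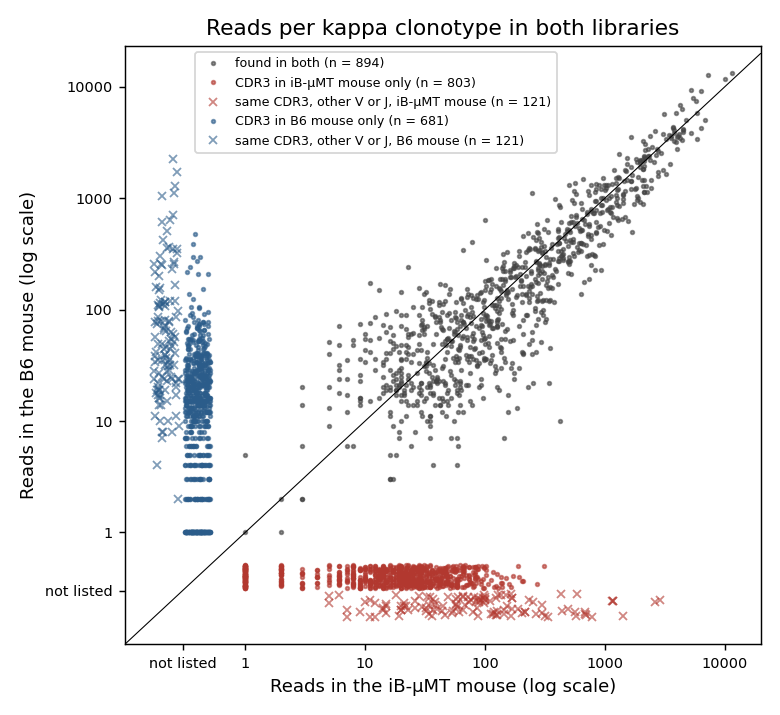
Each point is a kappa clonotype, with its reads in the iB-μMT mouse on the x axis and in the B6 mouse on the y axis, both on log scales. The line marks equal reads, and clonotypes not listed in a library are spread at random around the "not listed" mark. The 894 grey members lie along the line and tighten towards high counts, and crosses mark the 121 CDR3s listed under another V or J gene, which reach higher counts than the CDR3s of one library.

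A read share at least 2-fold higher in the iB-μMT mouse was found for 167 members (18.7%), against 34.5% of all 2620 clonotypes when an unlisted clonotype is set to 3 reads. A share at least 2-fold higher in the B6 mouse was found for 126 members (14.1%), against 27.7% of all. The background includes clonotypes not listed in one library, which the rule keeps out of the members, so the lower shares are no result about the members. The ratio exceeded 10-fold for 13 members. The 3 farthest in each direction, among members with at least 100 reads in the higher library, are shown because they depart most from equal shares.
IGKV4-86 with IGKJ2, higher in the iB-μMT mouse: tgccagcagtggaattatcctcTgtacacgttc
IGKV6-32 with IGKJ5, higher in the iB-μMT mouse: tgtcagcaggattatagctCgctcacgttc
IGKV1-88 with IGKJ5, higher in the iB-μMT mouse: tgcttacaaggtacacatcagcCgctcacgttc
IGKV10-96 with IGKJ1, higher in the B6 mouse: tgccaacagggtaatacgcttcctacgttc
IGKV17-121 with IGKJ2, higher in the B6 mouse: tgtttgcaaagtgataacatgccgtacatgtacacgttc
IGKV6-23 with IGKJ1, higher in the B6 mouse: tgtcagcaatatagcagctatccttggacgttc
The IGKV4-86 member had 423 reads in the iB-μMT and 10 in the B6 mouse, a 40.2-fold higher share. The IGKV6-32 member had 143 and 7 reads (19.4-fold) and the IGKV1-88 member 341 and 22 (14.7-fold). In the other direction the IGKV10-96 member had 11 reads in the iB-μMT and 173 in the B6 mouse (16.6-fold). The IGKV17-121 member had 13 and 150 reads (12.2-fold) and the IGKV6-23 member 23 and 242 (11.1-fold). None of the 6 had an inserted base. The IGKV17-121 member had the longest CDR3 among them, 39 bases, with 5 palindromic bases aligned before an untrimmed IGKJ2. With 1 library per mouse, these ratios compare the libraries and not the conditions.

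The join of members held fewer inserted bases than that of the other clonotypes. Inserted bases stood between V and J in 86 members (9.62%, 7.86 to 11.7), against 247 of the 924 clonotypes listed in the iB-μMT mouse alone (26.7%, 24.0 to 29.7) and 245 of the 802 in the B6 mouse alone (30.5%). A single inserted base was found in 4.92% of members against 13.4% and 16.8%. The mean was 0.295 ± 1.55 inserted bases (SD over 894 clonotypes) against 0.795 ± 2.32 (n = 924) and 0.918 ± 2.97 (n = 802). The V and J ends met in 48.0% of members, 46.8% of iB-μMT clonotypes listed once and 39.7% of B6 clonotypes listed once. In 42.4% of members 1 base or more could be aligned to both ends, against 26.5% and 29.8%, and an overlap of exactly 1 base accounted for 30.2% against 15.7% and 17.6%. The join is read from the CDR3, V and J gene that the rule matches, so these values describe the members and test nothing. Membership also follows read count. Inserted bases became rarer with reads, from 13.3% of members with a mean of up to 100 reads to 2.17% of those over 1000. Among clonotypes with 11 to 100 reads, 11.7% of members in the iB-μMT mouse had inserted bases against 24.7% of the others, and 10.7% against 28.1% in the B6 mouse. The lower share in members was therefore also seen within a like range of reads.

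**Figure D3:**
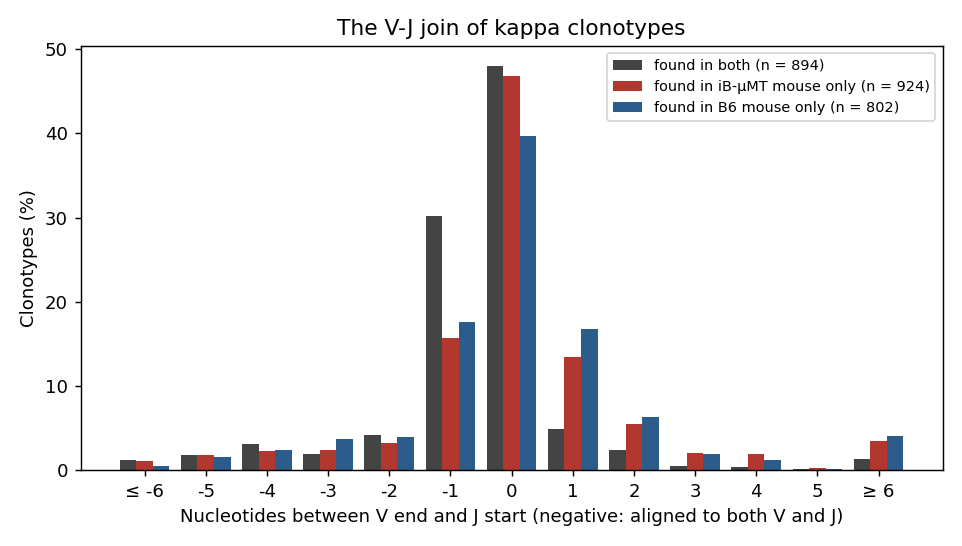
The x axis gives the bases between the end of V and the start of J, negative where bases align to both segments, and the y axis the percent of clonotypes. Dark bars are the 894 members, red and blue bars the clonotypes listed in the iB-μMT or the B6 mouse alone. In all 3 sets the tallest bar is at 0, where the ends meet (48.0% of members), and members stand above the others at an overlap of 1 base (30.2%) and below them at 1 inserted base (4.92%).

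The 12 members with 6 or more inserted bases belonged to 2 V genes. Of the 15 IGKV14-126 members, 8 had 17 bases of V counted as trimmed and 13 to 17 as inserted, and the inserted bases of all 8 began with the same 13 bases. All 12 IGKV4-57-1 members were counted as having inserted bases, which began with the same 2 bases, and in the 4 with 6 or more they began with the same 6 bases although V was counted as untrimmed. Examples with IGKJ1, IGKJ2 and IGKJ5 are shown because the repeated stretch is visible in the capitals.
IGKV14-126 with IGKJ2: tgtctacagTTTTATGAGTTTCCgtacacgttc
IGKV14-126 with IGKJ5: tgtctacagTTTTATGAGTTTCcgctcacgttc
IGKV14-126 with IGKJ1: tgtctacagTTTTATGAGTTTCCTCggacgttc
IGKV4-57-1 with IGKJ1: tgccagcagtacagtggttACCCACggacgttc
IGKV4-57-1 with IGKJ5: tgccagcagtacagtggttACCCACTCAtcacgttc
The 3 IGKV14-126 clonotypes had 216, 142 and 151 reads in the iB-μMT mouse and 270, 222 and 141 in the B6 mouse. The IGKV4-57-1 clonotypes had 77 and 62 reads in the iB-μMT and 76 and 72 in the B6 mouse. The alignment to the V reference counts these stretches as inserted although they repeat over different J segments in both mice, and their source was not tested. Without all clonotypes of these V genes, a choice made after seeing the data, 66 of 867 members had inserted bases (7.61%, 6.03 to 9.57), against 25.6% and 30.1% of the clonotypes listed in the iB-μMT or the B6 mouse alone.

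Members were also trimmed less. The mean number of V bases removed was 2.24 ± 2.31 (SD, n = 894) in members against 3.02 ± 3.22 (n = 924) in the iB-μMT mouse alone and 3.11 ± 3.40 (n = 802) in the B6 mouse alone. For J the means were 1.01 ± 1.21, 1.46 ± 1.70 and 1.57 ± 1.64. These others include the 121 CDR3s listed under another V or J gene, whose J means were 2.17 in the iB-μMT and 2.14 in the B6 mouse. For CDR3s in one library the J means were 1.35 and 1.47, nearer to members, and the V means 3.13 and 3.26, farther from members. J was untrimmed in 47.3% of members, against 47.4% and 41.0% of these CDR3s. The V difference was smaller within a like range of reads: members minus others was -0.333 bases in the iB-μMT mouse and -0.488 in B6 among clonotypes with 11 to 100 reads, against -0.778 and -0.871 over all reads. The J difference was -0.436 and -0.589 among clonotypes with 11 to 100 reads, against -0.444 and -0.555. Weighted by reads, the V difference was -0.248 and -0.151 and the J difference -0.919 and -1.22. Each SD exceeded the difference between the means, so single clonotypes of either kind overlapped widely. Untrimmed V and J together were found in 98 of 894 members (9.08 to 13.2%) and in 9.85% and 8.98% of the others, with overlapping intervals. Palindromic J bases were found in 32.7%, 34.6% and 29.1%.

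CDR3 length was narrower among members. Members spanned 9 to 13 amino acids, counted with the cysteine and phenylalanine at the ends, whereas the other clonotypes spanned 6 to 14 in the iB-μMT mouse and 7 to 26 in the B6 mouse. A CDR3 of 11 amino acids was found in 570 members (63.8%, 60.6 to 66.8), against 31.2% (28.3 to 34.2) in the iB-μMT mouse alone and 39.4% (36.1 to 42.8) in the B6 mouse alone. The mean length of members differed by -0.000864 amino acids from the other iB-μMT clonotypes and by 0.113 from the other B6 clonotypes. Among members the 11 amino acid share followed reads, at 39.5% with a mean of up to 100 reads, 80.1% with over 100 to 1000 and 93.5% above. Among clonotypes with 11 to 100 reads, it was 42.9% in members against 28.6% in the iB-μMT mouse, and 39.9% against 33.8% in the B6 mouse. No member had a stop codon (0 of 894, 0 to 0.428%), and 1.73% and 2.62% of the other clonotypes had one.

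**Figure D4:**
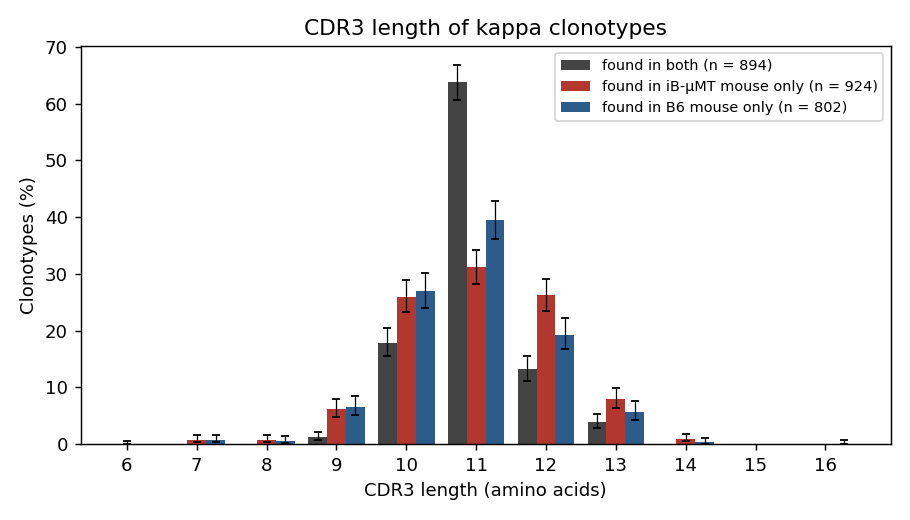
The x axis gives CDR3 length in amino acids from 6 to 16 and the y axis the percent of clonotypes, with 95% Wilson intervals; a B6 clonotype of 26 amino acids lies outside the plot. Dark bars are members, red and blue bars the clonotypes listed in the iB-μMT or the B6 mouse alone. Members stand at 63.8% at 11 amino acids and have no bar below 9 or above 13.

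Within members of 11 amino acids, the end of the loop was often the germline residue. Position 8, counted from the cysteine as 1, was proline in 93.3% (532 of 570), against 68.1% of the other clonotypes of that length without a stop codon in the iB-μMT and 81.8% in the B6 mouse. This proline is encoded near the end of many Igkv segments. Position 9 held the residue that an untrimmed J segment gives (tryptophan with IGKJ1, tyrosine with IGKJ2, phenylalanine with IGKJ4, leucine with IGKJ5) in 72.5% against 58.9% and 51.5%. Among CDR3s in one library under any V or J gene, proline stood at position 8 in 62.5% and 78.9%. The J residue stood at position 9 in 63.3% and 54.7% of these. Both residues are read from the CDR3 that the rule matches, so these values describe the members and test nothing. By J gene, this residue was found in 47.3% of the IGKJ1 members of that length, 88.3% with IGKJ2, 97.7% with IGKJ4 and 76.1% with IGKJ5.

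The 894 members encoded 691 different CDR3 amino acid sequences, and 158 of these were encoded by more than 1 member (361 members). An amino acid sequence had at most 5 members, reached by 2 of them. Both sets are shown because different joins, V genes and J genes gave an identical loop in both mice.
IGKV6-23 with IGKJ5, the first set: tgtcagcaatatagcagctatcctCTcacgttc
IGKV6-23 with IGKJ5, the first set: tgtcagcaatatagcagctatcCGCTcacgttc
IGKV6-13 with IGKJ5, the first set: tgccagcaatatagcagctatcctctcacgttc
IGKV6-23 with IGKJ1, the first set: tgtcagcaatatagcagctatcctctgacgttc
IGKV6-13 with IGKJ5, the first set: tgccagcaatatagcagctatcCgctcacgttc
IGKV6-17 with IGKJ1, the other set: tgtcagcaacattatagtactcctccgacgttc
IGKV6-25 with IGKJ1, the other set: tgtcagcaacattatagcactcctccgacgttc
IGKV6-17 with IGKJ5, the other set: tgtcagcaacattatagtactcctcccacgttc
IGKV6-25 with IGKJ5, the other set: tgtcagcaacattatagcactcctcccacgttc
IGKV6-17 with IGKJ5, the other set: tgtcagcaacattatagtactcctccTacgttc
In the order shown, the first set had 6302, 1643, 897, 408 and 78 reads in the iB-μMT mouse and 9188, 3584, 1317, 530 and 405 in the B6 mouse. The order of the 5 was the same in both mice. The other set had 1431, 852, 506, 461 and 66 reads in the iB-μMT mouse and 1060, 483, 520, 475 and 114 in the B6 mouse. In both sets the fifth sequence shown had the fewest reads in each mouse, and in the other set it was the single member with an inserted base.

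Members came from most of the V genes seen. Of 102 V genes in either library, 85 had at least 1 member and 17 had none, and 313 of the 375 V and J gene pairs had one. A pair with members had a median of 2 and at most 12. IGKV17-121 had the most members, 26 of its 75 clonotypes, followed by IGKV19-93 with 25 of 64, IGKV6-23 with 24 of 65, IGKV1-110 with 23 of 51 and IGKV6-15 with 22 of 63. Over the 56 V genes with at least 20 clonotypes, the median share of members was 34.9%. The highest were IGKV14-126 at 53.6% (35.8 to 70.5, 15 of 28), IGKV12-44 at 52.5% (37.5 to 67.1), IGKV2-109 with 12 of 24 (31.4 to 68.6), IGKV10-96 at 47.8% (34.1 to 61.9) and IGKV6-32 at 47.6% (33.4 to 62.3). These intervals overlapped each other, and those of IGKV2-109 and IGKV6-32 included the 34.1% of all kappa clonotypes.

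The lowest shares belonged to V genes whose CDR3s were often listed under another V or J gene in the other library. IGKV3-5, at chr6:70663298-70663895 in GRCm38.p6, had no member among 21 clonotypes (0 to 15.5%), but 9 of its CDR3s were in the other library under another V or J gene. IGKV4-72 had 7.89% (2.72 to 20.8), IGKV4-68 17.2% (7.60 to 34.5) and IGKV4-59 17.6% (9.57 to 30.3). IGKV8-24 had 2 members among 20 clonotypes (2.79 to 30.1%), and 8 of its other CDR3s were in the other library under IGKV6-25, a gene of another family. By CDR3 sequence alone, the shares found in both were 42.9% for IGKV3-5, 31.6% for IGKV4-72, 69.0% for IGKV4-68 and 49.0% for IGKV4-59. IGKV4-72 was still among the lowest of the 56 by this count, next to IGKV4-53 at 30.8%, which had the same share by either count.

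**Figure D5:**
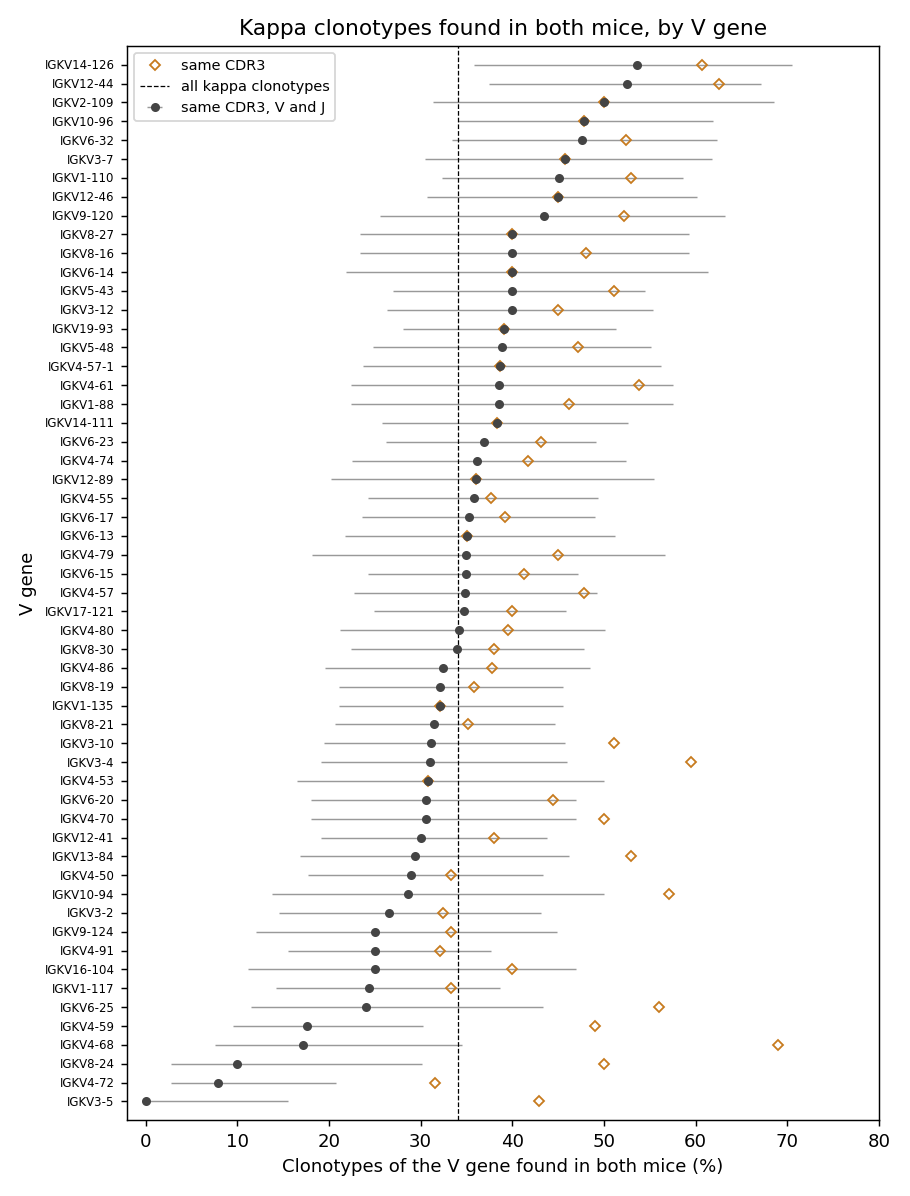
Each line is 1 of the 56 V genes with at least 20 kappa clonotypes, and the x axis gives the percent of its clonotypes found in both mice. Circles with 95% Wilson intervals count the same CDR3, V and J, diamonds the same CDR3, and the dashed line marks the 34.1% of all kappa clonotypes. Circles run from 0% for IGKV3-5 to 53.6% for IGKV14-126, and the diamonds of the lowest genes lie far to the right of their circles.

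Distance to the J segments did not order the shares. In the 34 V genes nearest to Igkj1, 34.3% of clonotypes were members (31.5 to 37.3). In the middle 34 it was 30.5% (27.3 to 33.8) and in the farthest 34 it was 37.1% (33.9 to 40.4). CDR3s in both mice under different V or J genes are left out here. The middle 34 include IGKV4-59, IGKV4-68 and IGKV4-72, found in both at 49.0%, 69.0% and 31.6% by CDR3 sequence alone. The nearest 34 include such a gene too, IGKV3-5 at 42.9%. These groups of V genes were not compared by CDR3 sequence alone. Among J genes, members were 38.1% of IGKJ5 clonotypes (34.4 to 41.9), 35.9% of IGKJ1, 31.8% of IGKJ2 and 28.7% of IGKJ4 (24.7 to 33.2). These shares leave out 67 CDR3s that were in both mice under different J genes. The J genes were IGKJ2 and IGKJ5 in 28 of them and IGKJ4 and IGKJ5 in 24, so the order of the shares depends in part on J assignment. IGKJ5 and IGKJ1 overlapped in their intervals, as did IGKJ2 and IGKJ4, while IGKJ5 and IGKJ4 did not. In IGKJ4 members J was untrimmed in 91.9%, and the mean number of J bases removed was 0.130, against 1.21 in IGKJ4 clonotypes listed once. The latter include CDR3s that were in both mice but under IGKJ4 in one and another J gene in the other. How much of this contrast comes from J assignment was not tested. In the other J genes 29.2% to 47.4% of members had an untrimmed J. Inserted bases were found in 8.39% of IGKJ1, 8.47% of IGKJ2, 8.94% of IGKJ4 and 12.4% of IGKJ5 members, against 26.4% of IGKJ1, 33.1% of IGKJ4 and 32.1% of IGKJ5 clonotypes listed once. IGKJ3 was not listed as a J gene in either library.

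Base quality and near copies were measured beside these differences. The lowest base quality within the CDR3 was at the top score of 38 in 98.9% of members in the iB-μMT and 98.3% in the B6 mouse, against 83.8% and 73.1% of clonotypes listed once. Of the clonotypes listed once, 23.5% in the iB-μMT and 23.8% in the B6 mouse differed by 1 base from a member with the same V and J gene and the same length. In 9.09% and 9.23% that member had at least 10 times their reads. With near copies of larger clonotypes left out of both libraries, 844 clonotypes were found in both. The share with inserted bases in members minus that in the others was then -16.5 points in the iB-μMT mouse and -19.9 points in B6. With all clonotypes it was -17.1 and -20.9. Possible copies that were listed under another J gene than the larger clonotype stayed in. In the iB-μMT mouse, the IGKV6-23 clonotype with IGKJ2 and an inserted base (272 reads) was 1 base from one with IGKJ5 (6302 reads). These values therefore do not cover all near copies, and how far copies account for the differences was not tested. Nor were inserted bases compared at like base quality.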

How the data were processed

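Naïve FO B cell RNA of 1 iB-μMT mouse and 1 B6 mouse was sequenced after 5′ RACE (MiSeq, paired reads). The authors assembled clonotypes with MiXCR 3.0.13 and exported each chain, and the submitters' processing notes name mm10. The deposited values used were the read count per clonotype, the fraction of the library's reads (checked against the counts) and the lowest base quality score in the CDR3. No molecular identifiers are described, so reads are not independent molecules. The best V and J gene was the first hit, without its allele. Trimming, inserted and overlapping bases came from the aligner's reference points. V and J genes were placed with the RefSeq annotation of GRCm38.p6, in which all 102 V genes were matched.

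Shares carry 95% Wilson intervals, and a count of 0 was read as up to 3 reads. No test was run, since each group had 1 library. Named V genes were the 5 with the most members and the 5 highest and 5 lowest shares among those with at least 20 clonotypes, and every J gene. Named clonotypes were the 5 members with the largest mean read share and the 3 largest ratios in each direction with at least 100 reads. The 3 largest of each library and the amino acid sequences with the most members were also named. Clonotypes with 1 read, with inserted stretches of 6 or more bases or with another V or J gene were chosen after their values were seen. Members and lists were chosen with earlier results of these data known. Alternatives were minimum reads of 2, 10 or 100, near copies left out (1 mismatch, same V, J and length, 10 times the reads), other definitions of a match, no stop codons, a single best V, weighting by reads and averaging within V genes with at least 5 clonotypes of each kind. Python 3.11.15, NumPy 2.4.6, pandas 2.3.3 and matplotlib 3.10.9 were used, and the code was tested on simulated data.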

Additional observations from a re-analysis of the deposited data

How the results depend on the processing

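Under the alternatives run, the number of clonotypes found in both libraries, the ratio of median reads and the number of V genes with members stayed within 1.5 times their reported values, and the differences in inserted bases, the 11 amino acid share and trimming kept their sign. The percent found in both moved above its interval of 46.9 to 51.5 in the iB-μMT mouse, to 52.1 with at least 2 reads, 54.6 with at least 10, 55.8 by CDR3 nucleotides and 56.3 by amino acids with V and J. In the B6 mouse it moved to 56.4, 59.4, 59.8 and 59.9. The difference in the percent with inserted bases, members minus others, was -17.1 points in the iB-μMT mouse and -10.1 weighted by reads, and -20.9 in the B6 mouse and -16.5 weighted. With 11 to 100 reads, chosen after seeing the data, it was -13.1 in the iB-μMT mouse. Within V genes the percent was lower in members in 47 of 61 V genes of the iB-μMT mouse and in 48 of 57 of the B6 mouse. The difference in the percent with 11 amino acids was 32.6 points in the iB-μMT mouse and 14.2 with 11 to 100 reads, and 24.4 in the B6 mouse, 29.6 with at least 10 reads, 31.6 weighted by reads and 6.20 with 11 to 100 reads. The mean length difference took either sign, moving from -0.000864 to 0.0934 amino acids in the iB-μMT mouse with 11 to 100 reads. The SD of the log2 ratio of read shares fell from 1.18 to 1.08 with at least 10 reads in each library and to 0.674 with at least 100. Fewer clonotypes enter at higher minimum reads, and a minimum in each library leaves out members that were low in one. The cause of the other moves was not tested. Among the values with less weight in the text, 14 alternatives moved and 60 did not. No paired analysis was possible because there was 1 library per group and chain. With 1 library a clonotype not listed may have been missed at this depth.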
